A study of Mus musculus with 2 samples.

Results

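The miR-99/100 and miR-125 families were examined among the miRNAs of extracellular vesicles (EVs) from mouse serum. EVs are small membrane-bound parcels that carry RNA and protein out of cells. The 10 mature miRNAs were taken by name, as the arms of miR-99a, miR-99b, miR-100, miR-125a and miR-125b that were listed for this purpose, out of 1847 mouse miRNAs in the deposited tables. Each name matched 1 row, and the rule itself is one of names. All 10 were above the lowest value of both tables. The libraries came from male iFIRKO mice, labelled Adipoq-CreERT2; Insr flox/flox, and from male control mice, labelled WT and described in the study's methods as carrying the floxed alleles without Cre. The Cre recombinase of iFIRKO mice is driven by the adiponectin promoter and activated by tamoxifen, so the insulin receptor is lost in adipocytes. Mice of both groups were 7 weeks old, received 100 mg/kg tamoxifen on 5 days in a row and were sampled 3 days after the final dose. Each group had 1 library, made from serum pooled over several mice, so neither a spread between animals nor a test between genotypes could be had. No miRNA reports on the insulin receptor gene, so the tables hold no direct check of which library came from which genotype. Every direction printed here is uncertain to that extent. The study reports a decrease of most serum EV miRNAs in iFIRKO mice. By the labels and on the deposited scale, 1225 of 1847 miRNAs were over 1.5-fold higher in the iFIRKO library. Another 56 were over 1.5-fold lower. Whether the labels were exchanged was not tested. The control library and the iFIRKO library are the libraries so labelled. With the labels exchanged every ratio would turn into its inverse, which leaves the sizes and the differences between miRNAs but not which library is the higher.

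miR-125 is the mammalian relative of lin-4, the founding miRNA of worm developmental timing, and it sits in the genome beside let-7, the other miRNA of that pathway, and beside a member of the miR-99/100 family. Such a trio occurs at 3 places in the mouse genome and is transcribed from each as a long precursor from which separate hairpins are cut. A hairpin gives a 5p and a 3p arm, of which one (here the 5p arm) is usually kept as the guide strand in Argonaute and the other is mostly degraded. The bases 2 to 8 of a miRNA, its seed, are the main determinant of which messages it pairs with. miR-99/100 is known for acting on the mTOR and IGF1 receptor messages, and miR-125 for its roles in blood stem cells, inflammation and cell differentiation. miR-99b is known as a miRNA that adipose tissue releases in EVs and that has been tied to Fgf21 in the liver.

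The mature sequences, from RefSeq (GRCm38), are shown because the results turn on which arms share a seed and on how closely the members resemble each other. All 10 members were found there. They are written 5′ to 3′ with the seed in capitals. The 5p arms fall into 2 seed groups, and miR-351-5p is added as the other well-expressed miRNA with the miR-125 seed.
mmu-miR-99a-5p: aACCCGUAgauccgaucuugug
mmu-miR-99b-5p: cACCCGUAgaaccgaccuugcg
mmu-miR-100-5p: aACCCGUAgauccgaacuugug
mmu-miR-125a-5p: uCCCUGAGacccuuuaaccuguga
mmu-miR-125b-5p: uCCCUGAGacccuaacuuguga
mmu-miR-351-5p: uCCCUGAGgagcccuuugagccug

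The 3p arms carry seeds other than those of their 5p partners. Only those of miR-99a and miR-99b share a seed with each other.
mmu-miR-99a-3p: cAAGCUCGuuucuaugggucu
mmu-miR-99b-3p: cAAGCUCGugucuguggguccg
mmu-miR-125a-3p: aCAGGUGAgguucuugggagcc
mmu-miR-125b-1-3p: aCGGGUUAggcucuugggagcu
mmu-miR-125b-2-3p: aCAAGUCAgguucuugggaccu

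Some of these sequences are hard to tell apart in short reads. miR-99a-5p and miR-100-5p have the same length of 22 bases and differ at 1 position, U16A, counted from 1 at the 5′ end with the base of miR-99a-5p first. miR-99a-5p and miR-99b-5p differ at 4 positions (A1C, U11A, U16C and U21C). miR-125a-5p, with 24 bases, and miR-125b-5p, with 22, share their first 13 bases. How the authors divided reads between such neighbours is not given in the sources used here, so the separate values of miR-99a-5p and miR-100-5p are uncertain to that extent, and sums over a seed group are given beside them. The mature lengths were nearly equal (21 to 24 bases), so levels were compared without dividing by length. The efficiency with which adapters join to an RNA end differs between sequences, and the level of one miRNA against another is therefore less sure than the level of one miRNA in both libraries.

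The hairpins lie in 3 clusters on the plus strand (GRCm38, GENCODE annotation). On chromosome 17, Mir99b (17830188 to 17830257), Mirlet7e (17830352 to 17830444) and Mir125a (17830812 to 17830879) lie within 0.692 kb inside the protein-coding gene Spaca6, the former pair in introns and Mir125a overlapping an exon of 1 annotated non-coding Spaca6 transcript. On chromosome 16, Mir99a (77598936 to 77599000), Mirlet7c-1 (77599657 to 77599750) and Mir125b-2 (77646273 to 77646343) span 47.4 kb and lie in introns of the non-coding Mir99ahg, Mir99a and Mirlet7c-1 opposite an intron of Gm11146 and Mir125b-2 also overlapping an exon of the unclassified transcript C130023A14Rik. On chromosome 9, Mir100 (41531425 to 41531504), Mirlet7a-2 (41536716 to 41536811) and Mir125b-1 (41581926 to 41582002) span 50.6 kb in introns of the non-coding 3110039I08Rik and Gm49317. Mir100 lies opposite an exon of Gm48742, and Mir125b-1 also overlaps an exon of Gm28119. miR-125b-5p is cut from both Mir125b-1 and Mir125b-2 and cannot be assigned to either cluster, whereas their 3p arms differ and can.

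The deposited value of a miRNA is a whole count divided by 1 constant of its library, which was recovered as 3817902 for the control library and 2233498 for the iFIRKO library, a 1.71-fold difference in depth. Levels are given as counts and as CPM (counts for each 1000000 of that constant). The lowest value of each table came out as 1 count and the next as 10, so the former was read as a count under 10. Intervals are at 95% and cover counting error only, and the sources do not say whether duplicate reads were merged. Across all 1847 miRNAs, the median ratio of iFIRKO to control was 1.84 (0.88 on the log2 scale). This background falls with abundance, from a median log2 ratio of 1.01 for 1350 miRNAs with a mean count of 10 to 100, over 0.53 for 302 miRNAs with 100 to 1000, to -0.07 for 118 miRNAs with 1000 or more. Ratios were also recomputed under 3 scalings that move all miRNAs alike. These were the median of ratios over miRNAs averaging 100 counts or more (a log2 shift of -0.27), miR-148a-3p held equal (-0.22), and the TMM factors of edgeR, a trimmed mean over all miRNAs (-0.85).

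Markers of other sources moved between the libraries. The red cell markers miR-451a, miR-144-3p, miR-144-5p, miR-486a-5p and miR-16-5p together took 27.3% of the control library and 19.8% of the iFIRKO library, and all 5 were lower in the latter. The study itself reports miR-144-3p and miR-451a as increased in serum EVs of iFIRKO mice. It gives this from sequencing and from quantitative RT-PCR on individual serum samples. The hepatocyte markers miR-122-5p, miR-122-3p and miR-192-5p took 11.9% and 19.9%, with all 3 higher. The platelet and myeloid markers miR-223-3p, miR-126a-3p and miR-142a-3p took 7.13% and 5.75%, with all 3 lower. The 3 stromal markers (1.10% and 1.12%) and the 3 adipocyte markers (0.168% and 0.199%) each had 2 higher and 1 lower. None of these markers was at the lowest value, and their directions rest on the same labels and on the deposited scale. The summed hepatocyte ratio of 1.68 was under the 1.81 by which TMM factors divide every ratio, so it would turn below 1. The stromal sum (1.02) would turn below 1 under all 3 scalings. The adipocyte sum (1.18) would do so by the median of ratios and with TMM factors. The red cell, platelet and myeloid markers would stay lower. The part of these markers in the ratios below was not tested.

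The 10 miRNAs were first ordered by level. Together they made up 2.52% of the control library and 2.48% of the iFIRKO library, and most of this was miR-125. mmu-miR-125b-5p was the most abundant, with 13281 CPM in the control library and 12017 CPM in the iFIRKO library, ranks 17 and 18 of all miRNAs. mmu-miR-125a-5p followed with 10588 and 11129 CPM, rank 20 in both.

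The miR-99/100 guide strands were more than an order of magnitude lower. mmu-miR-99a-5p had 618 CPM in the control library and 685 CPM in the iFIRKO library. mmu-miR-99b-5p had 338 and 413 CPM. mmu-miR-100-5p had 133 and 146 CPM. These 5 guide strands kept one order in both libraries, and their Poisson intervals did not overlap within a library.

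The passenger strands were lower still, apart from a pair close to miR-100-5p. In the control library mmu-miR-125b-2-3p (103 CPM, interval 93.5 to 114) and mmu-miR-99b-3p (94.8 CPM, interval 85.3 to 105) could not be ordered. mmu-miR-125b-1-3p, mmu-miR-99a-3p and mmu-miR-125a-3p lay at 24.6, 23.6 and 23.0 CPM and could not be ordered either. In the iFIRKO library mmu-miR-99b-3p (126 CPM, interval 112 to 141) overlapped both miR-100-5p (130 to 162) and mmu-miR-125b-2-3p (111 CPM, interval 98.1 to 126). There mmu-miR-99a-3p had 57.8 CPM (48.2 to 68.6) and stood above mmu-miR-125a-3p (38.5 CPM, 30.8 to 47.6) and mmu-miR-125b-1-3p (38.1 CPM, 30.4 to 47.1). The plot of levels by library shows this order on a log axis.

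**Figure D1:**
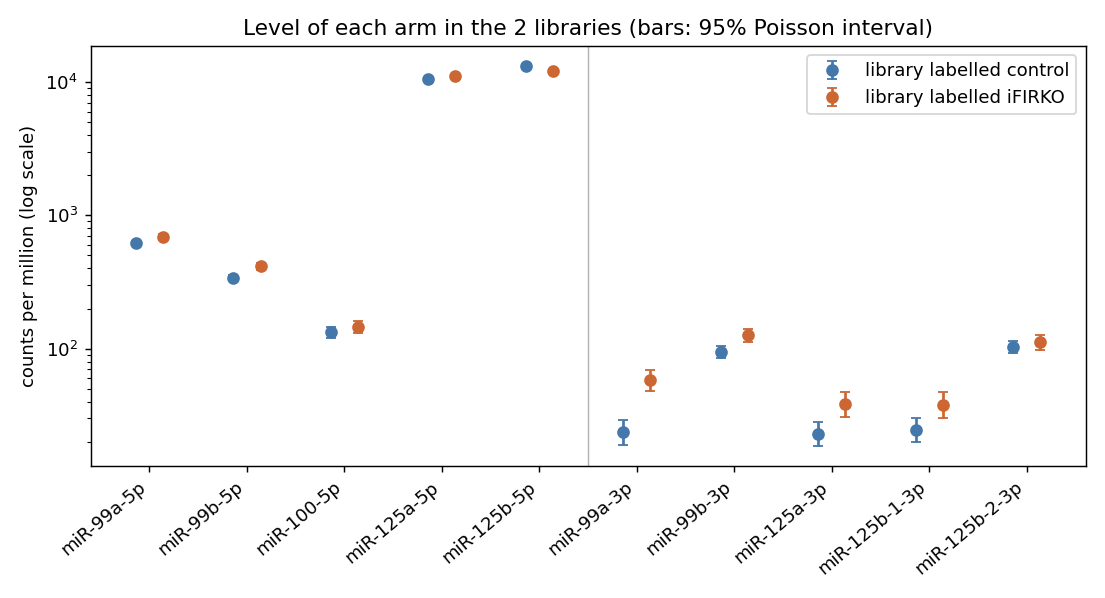
Level of each of the 10 arms in CPM (log axis) in the control library (blue) and the iFIRKO library (orange), 5p arms left of the grey line and 3p arms right of it, with 95% Poisson intervals. miR-125a-5p and miR-125b-5p lie highest in both libraries, and the clearest gap between libraries is that of miR-99a-3p (23.6 and 57.8 CPM).

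The ratios of the miR-125 guide strands were then compared, since these rest on the most counts. mmu-miR-125b-5p had 50704 counts in the control library and 26839 in the iFIRKO library, a ratio of 0.905 (interval 0.892 to 0.918). It was the only one of the 10 miRNAs with a ratio below 1 on the deposited scale. mmu-miR-125a-5p had 40423 and 24856 counts, for a ratio of 1.05 (interval 1.03 to 1.07). The pair thus lay on opposite sides of 1 as deposited. That sign depended on the scaling, since the ratio of miR-125a-5p was 0.874 by the median of ratios, 0.903 when scaled to miR-148a-3p and 0.581 with TMM factors. The quotient of both ratios, which no scaling moves, was 1.16 (interval 1.14 to 1.19), and miR-125a-5p grew from 44.4% (Wilson interval 44.0 to 44.7) to 48.1% (47.7 to 48.5) of the counts of the pair. Summed, the miR-125 guide strands had 91127 and 51695 counts, 23868 and 23145 CPM, with a ratio of 0.970 (interval 0.959 to 0.980).

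Other miRNAs with the miR-125 seed were few. RefSeq holds 5 mature mouse miRNAs with it, all 5 in the tables. miR-351-5p, from a cluster on the X chromosome, had 3543 and 1975 counts (928 and 884 CPM), a ratio of 0.953 (interval 0.901 to 1.01). miR-6394 (14 and 36 counts) and miR-6367 (56 and 71 counts) had few counts. Counts with this seed thus came mostly from miR-125a-5p and miR-125b-5p.

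The miR-99/100 guide strands all had ratios above 1 on the deposited scale, whereas with TMM factors all of them lay below 1. mmu-miR-99b-5p had 1289 and 923 counts, for a ratio of 1.22 (interval 1.12 to 1.33). mmu-miR-99a-5p had 2358 and 1531 counts, for a ratio of 1.11 (interval 1.04 to 1.18). mmu-miR-100-5p had 506 and 325 counts, a ratio of 1.10 whose interval (0.952 to 1.26) included 1. No difference among these ratios was detectable at this depth, as the quotient was 1.10 (interval 0.990 to 1.23) for miR-99b-5p over miR-99a-5p, 1.01 (0.865 to 1.18) for miR-99a-5p over miR-100-5p and 1.11 (0.944 to 1.32) for miR-99b-5p over miR-100-5p.

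As a seed group, the miR-99/100 guide strands had 4153 and 2779 counts, 1088 and 1244 CPM. Their summed ratio was 1.14 (interval 1.09 to 1.20) as deposited, but 0.951 by the median of ratios, 0.982 when scaled to miR-148a-3p and 0.633 with TMM factors. The 3 mature miRNAs with this seed in RefSeq are these members. miR-99a-5p made up 56.8% of the group in the control library (Wilson interval 55.3 to 58.3) and 55.1% in the iFIRKO library (53.2 to 56.9), miR-99b-5p 31.0% (29.6 to 32.5) and 33.2% (31.5 to 35.0), and miR-100-5p 12.2% (11.2 to 13.2) and 11.7% (10.6 to 12.9). The intervals of each share overlapped between libraries, whereas those of the miR-125 pair did not.

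The seed groups differed from each other. The miR-125 guide strands were 21.9-fold more abundant than the miR-99/100 guide strands in the control library and 18.6-fold in the iFIRKO library. This is a quotient of 1.18 in favour of miR-99/100 (interval 1.12 to 1.24), which a factor common to all miRNAs does not move. The fall of the background with abundance need not cancel in it. miR-10a-5p and miR-10b-5p, relatives of miR-99/100 whose seed is different, had ratios of 0.973 (9057 and 5155 counts, interval 0.940 to 1.01) and 0.952 (5004 and 2787 counts, interval 0.909 to 0.997). They lay nearer to miR-125 than to miR-99/100.

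The miRNAs with the most similar ratio were sought among those averaging 1000 counts or more. For the summed miR-99/100 guide strands these were miR-107-3p (log2 ratio 0.19), miR-676-3p (0.21) and miR-326-3p (0.21). For the summed miR-125 guide strands they were miR-10a-5p (-0.04), miR-361-5p (-0.05) and miR-142a-5p (-0.05). With 1 library in each group this likeness rests on a single ratio per miRNA, over 116 candidates.

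The passenger strands all had ratios above 1 as deposited, which under TMM factors held for miR-99a-3p alone. mmu-miR-99a-3p had 90 counts in the control library and 129 in the iFIRKO library, a ratio of 2.45 (interval 1.86 to 3.24) and the highest of the 10. mmu-miR-125a-3p had 88 and 86 counts, for a ratio of 1.67 (interval 1.23 to 2.27), and mmu-miR-125b-1-3p had 94 and 85 counts, for a ratio of 1.55 (interval 1.14 to 2.10). These 3 were past 1.5-fold, the fold change the study used as its threshold. mmu-miR-99b-3p had 362 and 281 counts, for a ratio of 1.33 (interval 1.13 to 1.55). mmu-miR-125b-2-3p had 395 and 249 counts, a ratio of 1.08 whose interval (0.916 to 1.27) included 1. Under TMM factors the ratio of miR-99a-3p was 1.36, and those of the other four lay between 0.596 and 0.924. Summed, the 5 passenger strands had 1029 and 830 counts, 270 and 372 CPM, and their ratio was 1.38 (interval 1.26 to 1.51) on the deposited scale.

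Counted over the 10 miRNAs, 3 were over 1.5-fold higher and none was over 1.5-fold lower in the iFIRKO library, with a median log2 ratio of 0.22. Over all miRNAs the shares were 66.3% and 3.03%, and the median was 0.88. The upward count of the members was therefore below the share of the tables as a whole. With the labels exchanged the counts would be 0 higher and 3 lower, against 3.03% and 66.3% of all miRNAs. With TMM factors, 0 of the 10 passed 1.5-fold upward and 5 passed it downward, against 21.0% and 19.5% of all miRNAs, while the higher miRNAs made up 51.9% of all those past 1.5-fold in place of 95.6%. By the median of ratios 1 member was higher and 0 were lower, where the shares of all miRNAs were 51.8% and 6.12%, and when scaled to miR-148a-3p the members' counts were also 1 and 0, where the shares were 54.2% and 5.52%. At 2-fold, 1 member was higher, against 43.0% of all miRNAs, and among miRNAs averaging 100 counts or more 1 member was past 1.5-fold, against 34.5%.

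Because the background depends on abundance, the members were also read within their class of mean count. The class of 10 to 100 held miR-125a-3p and miR-125b-1-3p, both past 1.5-fold, where 76.7% of the class were. Both had a ratio below the median of the class, with 907 and 1003 of 1350 miRNAs above them. The class of 100 to 1000 held miR-100-5p, miR-99a-3p, miR-99b-3p and miR-125b-2-3p, of which 1 was past 1.5-fold, where 47.0% of the class were. miR-99a-3p had 41 of 302 miRNAs above it and lay 0.76 above the median log2 ratio of the class, whereas the other three lay below that median. The class of 1000 or more held miR-99a-5p, miR-99b-5p, miR-125a-5p and miR-125b-5p, of which none was past 1.5-fold, where 2.54% of the class were. miR-99b-5p had 14 of 118 miRNAs above it, miR-99a-5p 29, miR-125a-5p 39 and miR-125b-5p 70. These places depend on where the classes are divided, since miR-99a-3p (mean count 109.5) and miR-99b-5p (mean count 1106) lay just inside the lower edge of theirs. Set against the class below, the log2 ratio of miR-99b-5p (0.29) was under the median of 0.53, and that of miR-99a-3p (1.29) was above the median of 1.01 by less than within its own class. miR-125a-3p (mean count 87) and miR-125b-1-3p (mean count 89.5) lay near the upper edge of their class. Set against the class above, their log2 ratios (0.74 and 0.63) were over the median of 0.53.

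**Figure D2:**
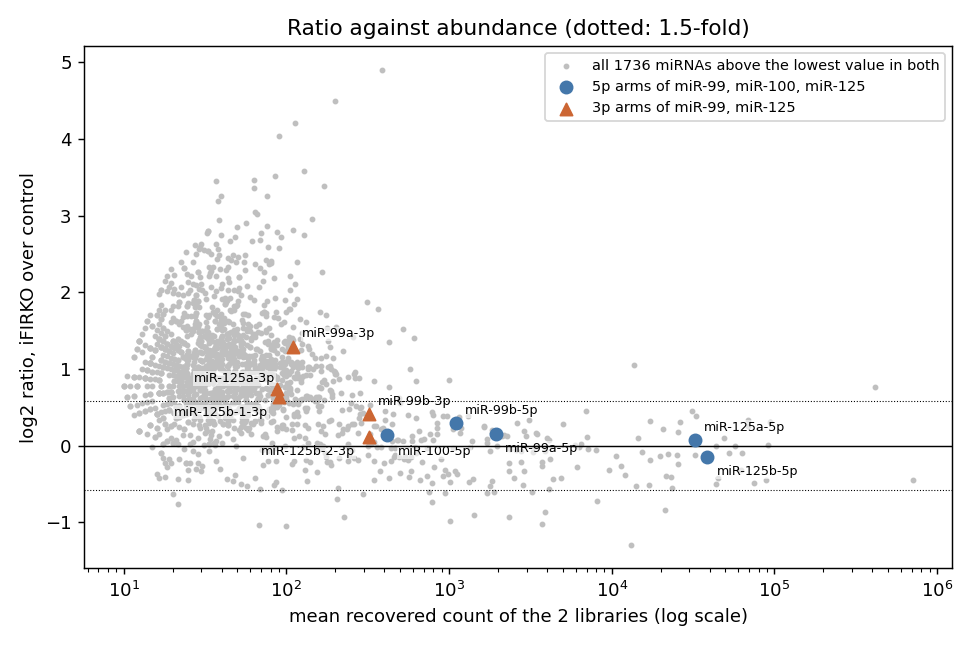
Log2 ratio of the iFIRKO to the control library against the mean recovered count of both libraries (log axis) for the 1736 miRNAs above the lowest value in both (grey), with the 5p arms (blue circles) and the 3p arms (orange triangles) named and dotted lines at 1.5-fold. The grey cloud rises as counts get lower, and the passenger strands miR-99a-3p, miR-125a-3p and miR-125b-1-3p lie above the upper dotted line on the deposited scale, where with TMM factors none of them would.

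Each miRNA's counts were set against all other counts with Fisher's exact test, which compares 2 libraries and not the genotypes. With a Benjamini-Hochberg adjusted p under 0.05 over all 1847 miRNAs, 7 members were higher and 1, miR-125b-5p, was lower in the iFIRKO library, against 61.1% and 5.47% of all miRNAs. The 2 members that did not pass were miR-100-5p (adjusted p = 0.23 by this exact test) and miR-125b-2-3p (adjusted p = 0.41).

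The arms of a hairpin come from 1 precursor, so their balance was compared next. A factor common to all miRNAs cancels in this comparison, whereas the fall of the background with abundance need not. Mir99a gave 26.2 counts of the 5p arm for each count of the 3p arm in the control library and 11.9 in the iFIRKO library. The 3p arm thus went from 3.68% (Wilson interval 3.001 to 4.497) to 7.77% (6.58 to 9.16) of both arms, a quotient of 2.21 (interval 1.66 to 2.95). Mir125a was the most lopsided hairpin, with 459 and 289 counts of the 5p arm for each of the 3p arm, and its quotient was 1.59 (interval 1.17 to 2.17). For miR-125b, with the 3p arms of both hairpins added, the 3p share was 0.955% (0.875 to 1.04) and 1.23% (1.10 to 1.37), a quotient of 1.29 (interval 1.12 to 1.49). Mir99b was the most balanced, with 21.9% (19.997 to 23.99) and 23.3% (21.04 to 25.81) of its counts from the 3p arm, and its quotient of 1.08 had an interval (0.904 to 1.30) that included 1.

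A shift toward the minor arm was common in these libraries. Among 84 hairpins with a major arm of mean count 1000 or more and both arms at 10 counts or more, the minor arm was relatively higher in the iFIRKO library for 71.4%, with a median quotient of 1.24. The quotients of Mir99b, miR-125b, Mir125a and Mir99a were 1.08, 1.29, 1.59 and 2.21, in that order, and the neighbouring let-7e hairpin gave 1.82 (interval 1.28 to 2.61). A quotient above 1 was therefore the usual direction, and those of miR-125b, Mir125a and Mir99a were above the median of the 84 hairpins. Of these, only Mir99a had an interval that left out this median. The interval of the let-7e hairpin left it out as well. How many of the 84 hairpins had such an interval was not computed. miR-125b, with both hairpins added, is not among the 84. For Mir100 the 3p arm, which is not one of the 10, had 10 counts in the control library and the lowest value in the iFIRKO library, so no balance was computed.

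**Figure D3:**
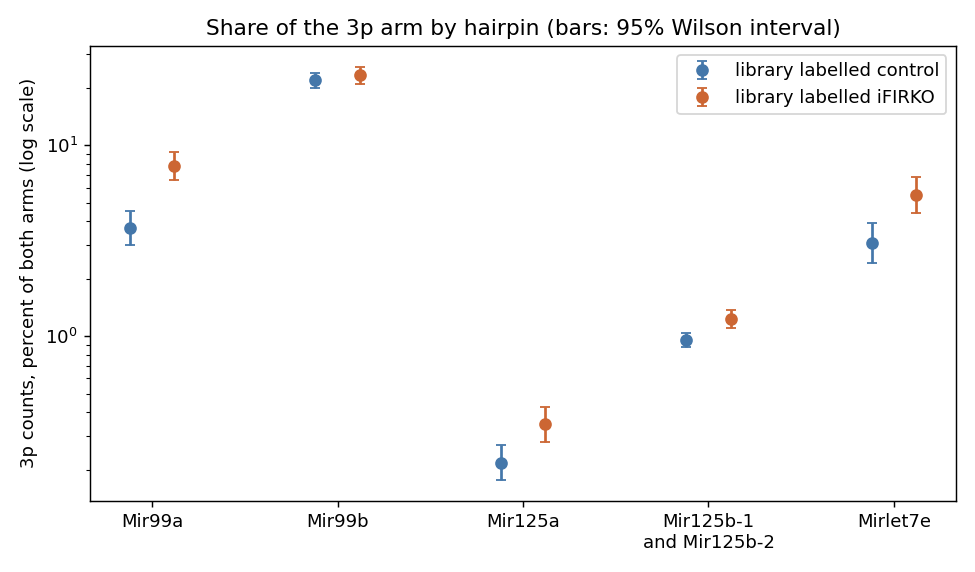
Counts of the 3p arm as a percent of both arms (log axis) for the hairpins of miR-99a, miR-99b, miR-125a, miR-125b (both hairpins added) and the neighbouring let-7e, in the control library (blue) and the iFIRKO library (orange), with 95% Wilson intervals. The share is higher in the iFIRKO library for every hairpin shown, most clearly for Mir99a (3.68% and 7.77%), and the intervals overlap only for Mir99b.

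The 3p arms also separate the hairpins that give miR-125b-5p. miR-125b-1-3p from chromosome 9 made up 19.2% (Wilson interval 15.98 to 22.95) of the miR-125b passenger counts in the control library and 25.4% (21.08 to 30.38) in the iFIRKO library, and miR-125b-2-3p from chromosome 16 made up 80.8% and 74.6%. The quotient was 1.43, with an interval (1.01 to 2.03) that nearly reached 1. The passenger strands of the sister hairpins Mir99a and Mir99b differed more clearly, with miR-99a-3p against miR-99b-3p at a quotient of 1.85 (interval 1.34 to 2.55). These values do not tell how miR-125b-5p itself was divided between its hairpins.

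The let-7 neighbours were compared last, cluster by cluster. In the chromosome 17 cluster every guide strand belongs to 1 hairpin, so its products can be set side by side. How reads were divided between let-7 family members is not given in the sources either. The values of the let-7 guide strands in all 3 clusters are uncertain to that extent. let-7e-5p had 1923 and 1348 counts (504 and 604 CPM), a ratio of 1.20 (interval 1.12 to 1.29), between those of miR-125a-5p and miR-99b-5p. miR-125a-5p was 21.02-fold more abundant than let-7e-5p in the control library and 18.44-fold in the iFIRKO library, although both hairpins lie under 1 kb apart. The ratios of miR-99b-5p and let-7e-5p did not differ detectably (quotient 1.02, interval 0.914 to 1.14). miR-125a-5p was lower relative to let-7e-5p (quotient 0.877, interval 0.816 to 0.943), and miR-99b-5p was higher relative to miR-125a-5p (quotient 1.16, interval 1.07 to 1.27). Among the passenger strands of this cluster, let-7e-3p had 61 and 78 counts, for a ratio of 2.19 (interval 1.54 to 3.11). miR-99b-3p was lower relative to it (quotient 0.607, interval 0.412 to 0.893), and for miR-125a-3p the interval of the quotient (0.476 to 1.23) included 1.

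In the chromosome 16 cluster, let-7c-5p, which Mirlet7c-2 on another chromosome also gives, had 68408 and 37296 counts, for a ratio of 0.932 (interval 0.920 to 0.944). miR-99a-5p was higher relative to it (quotient 1.19, interval 1.11 to 1.27). The passenger strand let-7c-1-3p belongs to this cluster alone and had 244 and 197 counts, for a ratio of 1.38 (interval 1.14 to 1.67). Against it miR-99a-3p was higher (quotient 1.78, interval 1.26 to 2.50), and for miR-125b-2-3p the interval (0.606 to 1.01) included 1. The passenger strands of 1 host transcript thus spanned ratios from 1.08 to 2.45. These ratios were higher where counts were lower, which is also the direction of the background.

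In the chromosome 9 cluster, let-7a-5p, which Mirlet7a-1 on another chromosome also gives, had 30618 and 20173 counts, for a ratio of 1.13 (interval 1.11 to 1.15), and miR-100-5p did not differ from it detectably (quotient 0.975, interval 0.844 to 1.12). let-7a-2-3p, the passenger strand of this cluster's own let-7 hairpin, had 388 and 651 counts, the highest ratio of the 6 let-7 neighbours at 2.87 (interval 2.53 to 3.26). miR-125b-1-3p was lower relative to it (quotient 0.539, interval 0.387 to 0.751). In all, 22 quotients were computed, 16 between miRNAs, 5 between arms and 1 between the seed groups, and their intervals were not adjusted for this number. Of the 16 between miRNAs, 9 had an interval that left out 1. How often pairs drawn from all miRNAs would do so was not computed. The fall of the background with abundance need not cancel in these quotients. In all of these 9 but miR-125b-1-3p against let-7a-2-3p, the less abundant miRNA was relatively higher in the iFIRKO library.

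**Figure D4:**
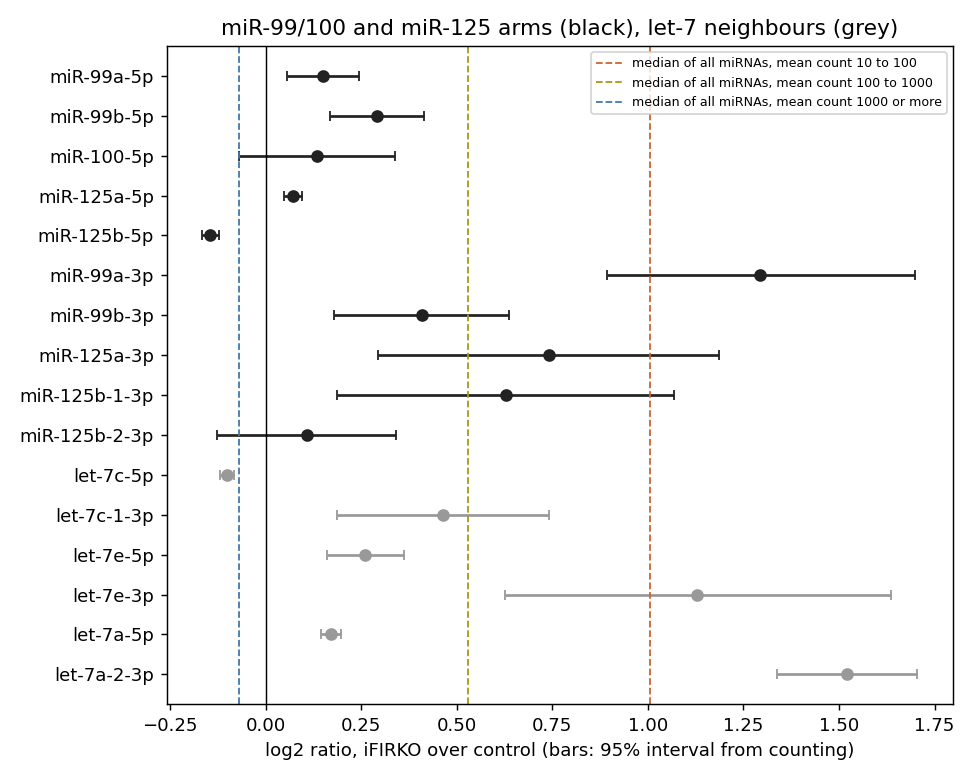
Log2 ratio of the iFIRKO to the control library for the 10 arms (black) and the 6 let-7 neighbours (grey), with 95% intervals from counting, and dashed lines at the median of all miRNAs with a mean count of 1000 or more (blue, -0.07), of 100 to 1000 (yellow, 0.53) and of 10 to 100 (orange, 1.01). The guide strands of miR-99/100 and miR-125 lie between -0.14 and 0.29, miR-99a-3p and let-7a-2-3p lie farthest to the right, and with TMM factors 9 of the 10 arms would lie below 0.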

How the data were processed

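Serum EV RNA was converted with the QIAseq miRNA chemistry and read on an Illumina instrument. The authors used the GeneGlobe service for analysis and deposited, per miRNA, 1 normalized signal. The submitters' processing notes name mm10, and the aligner, the miRNA release and the use of molecular identifiers are not given in the sources used here. All values (100.0% in each table, within 0.1) were whole counts divided by 1 constant per library, taken as its depth, and counts were recovered from it. The lowest value stands for a count under 10.

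The main measure was the ratio of iFIRKO to control on the deposited scale, with the study's threshold of 1.5-fold and no pseudocount. Intervals at 95% were Clopper-Pearson for ratios, Poisson for levels, Wilson for shares and exact conditional for quotients (scipy 1.17.1, Python 3.11.15). Scripts were tested on simulated data. The alternatives were the scalings (TMM from edgeR 4.0.16), 1 CPM added, filters on mean count, the lowest value set to 10 counts, a 2-fold threshold, Fisher's exact test, shares without miR-100-5p and, added after seeing the data, exchanged labels. The named miRNAs were the 10 members, 6 let-7 neighbours, miRNAs sharing a seed, miR-10a/b, miR-148a-3p, and for each seed group the 3 nearest in log2 ratio. The members and lists were chosen with earlier results of these data known.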

Additional observations from a re-analysis of the deposited data

How the results depend on the processing

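No paired analysis was possible because control and iFIRKO were represented by 1 library each, and for the same reason no library could be left out. The lowest value at 10 counts could not move any member ratio, since no member was at the lowest value. Equal totals, which divided every ratio by only 0.998, and 1 CPM added left all 10 member ratios inside their counting intervals. The scalings did not. The number of members over 1.5-fold higher was 3 as deposited, 1 by the median of ratios, when scaled to miR-148a-3p, with a mean count of at least 100 and with a 2-fold threshold, 0 with TMM factors and 7 by Fisher's exact test. The number over 1.5-fold lower was 0 as deposited, 5 with TMM factors and 1 by Fisher's exact test. The shares of all miRNAs past 1.5-fold higher and lower were 51.8% and 6.12% by the median of ratios, 54.2% and 5.52% when scaled to miR-148a-3p and 21.0% and 19.5% with TMM factors. These shifts follow from 1 factor applied to every miRNA, from fewer miRNAs kept, from the other threshold, or from a call without a fold limit.

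The median log2 ratio of the members was -0.045 for the median of ratios, 0.0014 for scaling to miR-148a-3p and -0.63 for TMM factors. The summed miR-99/100 guide strands had ratios of 0.951, 0.982 and 0.633 under these scalings in the same order, and the summed miR-125 guide strands 0.806, 0.833 and 0.536. Of the 9 members above 1, 4 turned below 1 under all 3 scalings. miR-99a-5p was at 0.923, 0.953 and 0.614, and miR-125a-5p at 0.874, 0.903 and 0.581. miR-100-5p was at 0.913, 0.943 and 0.607 and miR-125b-2-3p at 0.896, 0.925 and 0.596, both with a deposited interval that included 1. With TMM factors alone, miR-99b-5p was at 0.677, miR-99b-3p at 0.734, miR-125a-3p at 0.924 and miR-125b-1-3p at 0.855. Without miR-100-5p, miR-99a-5p made up 64.7% of the remaining pair in the control library and 62.4% in the iFIRKO library. Depth limits the passenger strands most, where miR-125a-3p, miR-125b-1-3p and miR-99a-3p rest on 85 to 129 counts.

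An exchange of the sample labels was added after seeing the data, because the tables hold no direct check of them. It would give 0 members over 1.5-fold higher and 3 lower, against 3.03% and 66.3% of all miRNAs. The median log2 ratio would be -0.22, and the summed ratios 0.874 for the miR-99/100 and 1.03 for the miR-125 guide strands. The ratios would be 0.901 for miR-99a-5p, 0.817 for miR-99b-5p, 0.951 for miR-125a-5p, 1.11 for miR-125b-5p, 0.408 for miR-99a-3p, 0.754 for miR-99b-3p, 0.599 for miR-125a-3p and 0.647 for miR-125b-1-3p.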
